A study of Mus musculus with 71 samples.

Results

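The comparison described here is between the brains of undisturbed mice of 2 inbred strains, DBA/2J and AKR/J. Its members are the 24 arrays labelled as controls of these strains, 12 of DBA/2J and 12 of AKR/J, out of 71 arrays in the study. Each strain contributed 3 arrays at each of 4 times of sacrifice, ZT0, ZT6, ZT12 and ZT18, where ZT0 is light onset. All mice were males of 12 to 13 weeks, and each array held whole-brain RNA pooled in equal amounts from 3 mice of 1 group, which averages over animals and over brain regions. The labels give no transgene, drug or induced mutation for either strain, so the groups differ by inbred background, and animals of 1 strain are genetically near identical. The same strains were also measured after 6 hours of sleep deprivation (12 arrays of DBA/2J and 11 of AKR/J), and undisturbed C57BL/6J mice were measured on 12 further arrays. Those 35 other arrays were not used to define the comparison and serve below as separate mice.

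An inbred strain is fixed for 1 allele at nearly every locus, so a difference between 2 strains in the RNA of a gene can be inherited as a stable trait. Whether the differences below are inherited was not tested. The arrays read a gene through probe sets, groups of short oligonucleotides that match a short stretch of its transcripts, often near the 3' end, and many genes have several probe sets. The signal of a probe set depends on how much of that stretch is present and on how well the sample's sequence pairs with the probes, and these were not told apart here, since probe sequences were not used. For this reason genes whose probe sets gave the same difference are described apart from genes in which a single probe set differed. Probe sets of a gene can share target sequence, so agreement between them is not agreement of independent measurements.

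All values are log2 signals, in which 1 unit is a 2-fold change, and differences are DBA/2J minus AKR/J with the time of sacrifice as a block. The threshold for a call was an adjusted p under 0.05 (limma, Benjamini-Hochberg over 45037 probe sets), and called with size where the difference was also at least 0.5, which is 1.41-fold. No detection calls were used, so where a strain reads below the median signal of all probe sets, 5.68, that level is not shown to be above background, and the size of the difference may be understated. The log2 values ran from 2.69 to 14.8, array medians lay between 5.65 and 5.71, every pair of the 71 arrays correlated at 0.987 or more, and the root mean square difference between replicates was 0.145 to 0.239. Within the 24 arrays the first principal component, which separates the strains, held 45% of the variance and the second 7.52%. On hybridisation spike-in controls 6 arrays of the study stood apart, of which 2 are in this comparison: AKR/J controls, ZT0 replicate 3 and ZT6 replicate 3. Without those 2 arrays the calls with size numbered 1230, against 1244 with them. Pituitary markers varied widely within both strains, with a summed linear signal of 251 to 19380 in AKR/J and 705 to 17640 in DBA/2J, and none of the 7 was called, although all 7 had a higher mean in DBA/2J, by 0.03 to 1.47 with a median of 1.08.

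Of the 45037 probe sets tested, 7105 were called, a background of 15.8%. Of these, 3703 (8.22% of all) were higher in DBA/2J and 3402 (7.55%) lower, with a median size of 0.227. A size of at least 0.5 was reached by 1244 probe sets, 2.76% of all, evenly split into 622 higher and 622 lower (1.38% each). Sizes of at least 1 were seen on 440 probe sets, of at least 2 on 122 and of at least 3 on 37. The 12 arrays of one strain did not overlap with the 12 of the other on 1642 probe sets (3.65% of all), and on 1105 of the 1244 called with size (88.8%). Just inside the size limit lay Mrps10 with a difference of -0.5005, and just outside it Gm9925 with -0.4994.

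A gene could be sorted by the agreement of its probe sets where 2 or more carried its symbol alone, which held for 9010 of 18193 genes. Only calls with size count towards the classes that follow. In 555 of the 9010 genes at least 1 probe set was called with size. The most frequent pattern among these was a single differing probe set, in 367 genes (66.13%), with every other probe set of the gene below 0.5 of its size or of opposite sign. In 91 genes (16.4%) at least 2 probe sets were called in the same direction and the second largest difference was at least 0.5 of the largest; these are called agreeing below. In 12 genes (2.16%) the called probe sets had the same sign but unequal size, and in 34 genes (6.13%) probe sets were called in opposite directions. In 51 genes (9.19%) 1 probe set was called with size, and another reached at least 0.5 of that difference but was not. The latter could still be called at a smaller size, as in Hspe1 (-0.38 ± 0.04 on 1450668_s_at). A further 151 genes with 1 probe set were called and could not be sorted, and 362 probe sets called with size had no single gene name.

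**Figure D1:**
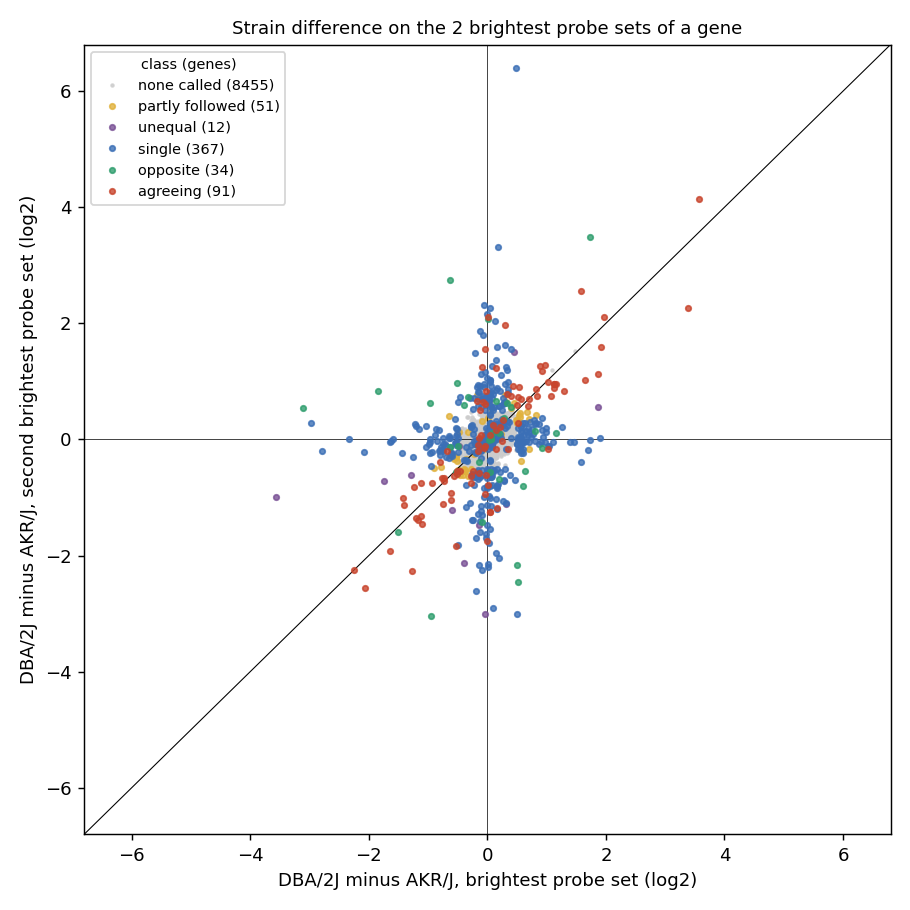
Strain difference (DBA/2J minus AKR/J, log2) on the brightest probe set of each of 9010 genes (horizontal axis) against the second brightest (vertical axis), 1 point per gene, coloured by class, with the line of equality. Genes with a single differing probe set (367) lie mostly along the axes at zero, many agreeing genes (91) lie along the line of equality, and agreeing genes on an axis are those in which 1 of the 2 brightest probe sets showed no such difference.

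The unequal behaviour of probe sets was tested directly by subtracting the second brightest from the brightest probe set of each gene on each array, a choice made by level and not by strain. The strain difference was unequal on this pair in 1188 of 9010 genes, a background of 13.2%. It was unequal in 293 of the 367 genes with a single differing probe set (79.8%) and in 57 of the 91 agreeing genes (62.6%). In the 8455 genes with no call of size it was unequal in 777 (9.19%). Since the classes come from the same arrays, their shares describe the classes and are no separate evidence for them. The single differing probe set was the gene's brightest in 113 of 367 genes (30.8%). In 294 of the 367 (80.1%) a probe set without a call with size was at or above the median signal of all probe sets. Such a probe set could still show a smaller called difference.

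The agreeing genes divide further. In 27 of the 91 every probe set of the gene was called with size, in 52 the brightest probe set was among the called ones, and in 39 the brightest showed no call of size. Of the 91 genes, 48 were higher and 43 lower in DBA/2J.

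Among genes in which every probe set was called with size, Cap1 had the largest mean difference over its probe sets in favour of DBA/2J. Its protein binds actin monomers and speeds the turnover of actin filaments. Probe set 1417461_at read 6.24, 6.82 and 7.47 (lowest, median and highest) in AKR/J and 10.30, 10.42 and 10.50 in DBA/2J. On 1417462_at the corresponding values were 4.45, 5.30 and 5.88 in AKR/J and 9.23, 9.43 and 9.51 in DBA/2J. Every DBA/2J array was far above every AKR/J array on both, by 3.57 ± 0.09 (SE, n = 12 per strain, adjusted p = 5.43e-22) and 4.13 ± 0.09 (adjusted p = 2.39e-23). C57BL/6J, with medians of 6.53 and 5.03, was at the AKR/J level.

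Pisd-ps3 is a pseudogene related to the mitochondrial phosphatidylserine decarboxylase gene, and its signal may be shared with other copies of that sequence. All 5 of its probe sets were higher in DBA/2J, by 2.26 ± 0.05 to 4.71 ± 0.08. On the bright 1434975_x_at AKR/J read 8.08, 8.28 and 8.68 and DBA/2J 11.53, 11.77 and 11.85, with no overlap. C57BL/6J lay between the strains there, with a median of 10.42.

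Ppp1r16b encodes a targeting subunit that brings protein phosphatase 1 to the cell membrane. Its bright probe set 1455080_at read 8.26, 8.51 and 8.70 in AKR/J and 10.08, 10.41 and 10.59 in DBA/2J, a difference of 1.86 ± 0.05 (adjusted p = 7.5e-21). The dimmer 1425414_at was higher by less, 1.13 ± 0.05, and the 2 sizes differed from each other (adjusted p = 2.77e-09). Serpina1b, one of several near-identical mouse genes for the protease inhibitor alpha-1-antitrypsin, was higher by 1.91 ± 0.08 and 1.60 ± 0.07 on 2 probe sets of the _x_at type, which can match several transcripts. AKR/J arrays ran from 4.41 to 5.27 and DBA/2J arrays from 6.54 to 7.12 on the first of these, again without overlap.

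Other genes with every probe set higher in DBA/2J included Fam71e1 (1.65 ± 0.07 and 1.02 ± 0.08) and the zinc finger gene Zfp729a, with 3 probe sets between 0.95 ± 0.06 and 1.59 ± 0.08. Kcnj16, which encodes an inwardly rectifying potassium channel subunit found in glia, was higher by 1.29 ± 0.05 and 0.83 ± 0.07. On its brighter probe set 1436163_at AKR/J read 5.72, 5.83 and 6.03 and DBA/2J 6.99, 7.18 and 7.32.

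On the side of lower signal in DBA/2J, Krt12 showed nearly the same difference on both of its probe sets. The gene encodes an intermediate filament protein best known from the corneal epithelium. Values on 1419230_at were 7.26, 7.79 and 8.05 in AKR/J and 4.99, 5.59 and 6.04 in DBA/2J. The differences were -2.25 ± 0.06 (adjusted p = 1.95e-21) and -2.24 ± 0.10 (adjusted p = 8.45e-17), and the strains did not overlap on either.

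Tcea1 encodes the transcription elongation factor TFIIS, which helps stalled RNA polymerase II to resume. On 1419258_at AKR/J read 10.07, 10.36 and 10.44 and DBA/2J 9.01, 9.16 and 9.54. The strain difference was -1.11 ± 0.06 (adjusted p = 3.84e-15) there and -1.46 ± 0.08 (adjusted p = 1.03e-14) on 1419257_at, with no overlap on either. C57BL/6J medians of 10.35 and 9.31 matched those of AKR/J within the range of the AKR/J arrays. Tm9sf4, a membrane protein of the endosomal and Golgi pathway, was lower by -1.40 ± 0.07 and -1.13 ± 0.09. Mtm1, the phosphoinositide phosphatase myotubularin, was lower on all 3 probe sets, by -0.54 ± 0.07 to -1.92 ± 0.06, although on the dimmest, 1416934_at, the strains overlapped. Nat8f4, an N-acetyltransferase family gene, was lower on all 3 (-0.53 ± 0.05, -1.84 ± 0.05 and -2.01 ± 0.07), and Sbspon, which encodes a secreted matrix protein, on both (-1.20 ± 0.08 and -1.35 ± 0.09).

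**Figure D2:**
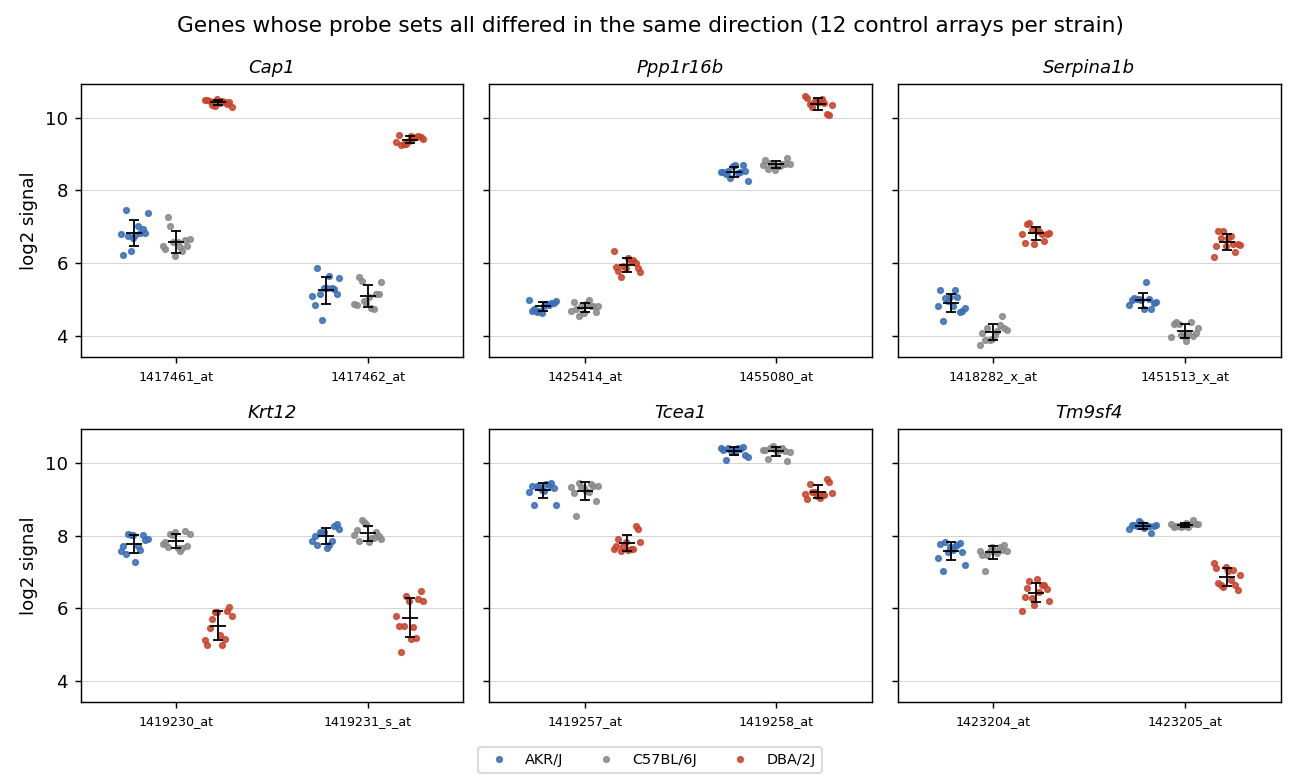
Log2 signal (vertical axis) on every probe set of 6 genes in which all probe sets were called with size, for 12 control arrays each of AKR/J, C57BL/6J and DBA/2J, with mean and SD in black. In every panel DBA/2J stands apart from AKR/J in the same direction on both probe sets, for example Cap1 between 10.30 and 10.50 in DBA/2J and between 6.24 and 7.47 in AKR/J on 1417461_at.

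In other agreeing genes at least 2 probe sets moved together while a brighter one of the same gene did not. Uqcr10, a small subunit of respiratory complex III, was higher in DBA/2J by 4.15 ± 0.08 on 1434340_at and 2.11 ± 0.09 on 1434341_x_at. Its brightest probe set, 1424364_a_at, ran from 10.75 to 11.14 in AKR/J and from 10.80 to 11.13 in DBA/2J, a difference of 0.01 ± 0.05 (adjusted p = 0.936). The strains thus overlapped fully on the brightest probe set and not at all on the other 2.

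Prpf19 behaved alike in the opposite direction. It encodes a ubiquitin ligase of the spliceosome. A pair of bright probe sets was lower in DBA/2J (-1.51 ± 0.04 and -1.25 ± 0.04), whereas the brightest, 1456531_x_at, differed by 0.04 ± 0.03 and 1460633_at by 0.08 ± 0.04, neither called. Kif5b, the heavy chain of the kinesin-1 motor that carries cargo along axons, had 6 probe sets. Of these, 3 were higher in DBA/2J with size (2.00 ± 0.07, 1.25 ± 0.04 and 0.79 ± 0.06), 1 was higher by 0.33 ± 0.07, and the other 2, including the brightest, 1418430_at, were not called (-0.08 ± 0.04 and -0.10 ± 0.05).

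The translation factor gene Paip1 was higher on 2 dim probe sets (3.01 ± 0.07 and 2.14 ± 0.07) but only by 0.24 ± 0.04 on its brightest, 1451740_at. Mbtd1, a reader of methylated histones, was higher on all 4 of its probe sets, by 1.97 ± 0.06, 0.99 ± 0.07, 0.29 ± 0.03 and 0.20 ± 0.05. For Dcaf17, a substrate receptor of a ubiquitin ligase, 2 probe sets were higher (2.56 ± 0.06 and 1.58 ± 0.07) and the dim 1445607_at was not called (-0.09 ± 0.04). Fam168a was lower on 3 probe sets (-1.74 ± 0.04, -1.14 ± 0.05 and -0.79 ± 0.05), but 1434373_at read 9.79 in AKR/J and 9.80 in DBA/2J at the median. Fam126b was lower on all 4, from -0.27 ± 0.04 to -2.42 ± 0.06, with the smallest difference on its brightest. Sbsn, known from the epidermis, was lower on 2 (-2.56 ± 0.10 and -2.07 ± 0.08) with the third near the floor in both strains. The zinc finger gene Zfp40 was lower on 3, by -0.47 ± 0.05, -1.17 ± 0.06 and -1.38 ± 0.05, and by -0.16 ± 0.05 on the dim 1441613_at, whose call was lost with quantile normalization and on leaving out any of 13 arrays.

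Genes with a single differing probe set included the largest differences of the comparison. Scn2b encodes the beta-2 subunit of voltage-gated sodium channels in neurons. On 1430648_at AKR/J read 4.42, 4.74 and 5.12 and DBA/2J 11.01, 11.22 and 11.26, a difference of 6.40 ± 0.07 (adjusted p = 7.79e-31). On 1436134_at AKR/J read 10.20, 10.32 and 10.60 and DBA/2J 10.67, 10.85 and 10.96, a difference of 0.48 ± 0.04 (adjusted p = 1.45e-09). Both probe sets placed every DBA/2J array above every AKR/J array, but by very unequal sizes. The remaining probe set, 1457144_at, was dim in both strains and not called (-0.14 ± 0.05). C57BL/6J had the DBA/2J level on both, with medians of 11.20 and 10.84.

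Vcp encodes a widely expressed ATPase that extracts ubiquitinated proteins. Its main probe set 1423030_at read 10.92, 11.05 and 11.13 in AKR/J and 11.06, 11.22 and 11.27 in DBA/2J, a difference of 0.17 ± 0.03. On 1457588_at the values were 3.78, 4.01 and 4.26 against 7.17, 7.29 and 7.54, a difference of 3.31 ± 0.05 (adjusted p = 4.37e-27). The same contrast was seen in Nsg2, a neuronal vesicle protein, where the bright 1416107_at differed by -0.06 ± 0.03 (adjusted p = 0.24) and the dimmer 1456685_at by 2.32 ± 0.07. Peg3, an imprinted gene expressed from the paternal copy, was higher by 2.27 ± 0.05 on 1417355_at. Its 2 other bright probe sets differed by 0.04 ± 0.04 and -0.03 ± 0.05. Gtpbp4, a nucleolar GTPase, was higher by 3.35 ± 0.08 on 1423142_a_at and by 0.23 ± 0.04 and 0.24 ± 0.04 on its other probe sets. Of 6 probe sets of the corepressor gene Runx1t1, only 1440310_at was called with size (2.33 ± 0.07).

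Lower single probe sets in DBA/2J followed the same form. Phgdh catalyses the first step of serine synthesis and in brain is mainly glial. Its 1454714_x_at read 9.12, 9.21 and 9.31 in AKR/J and 4.09, 4.36 and 5.0 in DBA/2J, a difference of -4.79 ± 0.07 (adjusted p = 3.16e-28). The other 3 probe sets were lower too, but by -0.36 ± 0.04, -0.35 ± 0.03 and -0.29 ± 0.03, each without overlap between the strains. So Phgdh was lower on all 4 probe sets, by a small amount on 3 of them and a large one on 1. All 4 are of the _x_at type, which can match several transcripts.

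Camk2n1 encodes an inhibitor of the kinase CaMKII and was among the brightest genes shown here. Its bright 1456609_at was higher in DBA/2J, with 13.06, 13.15 and 13.17 in AKR/J and 13.51, 13.63 and 13.70 in DBA/2J (0.49 ± 0.03, adjusted p = 1.14e-13). Its dimmer 1440455_at was lower, with 9.18, 9.29 and 9.63 in AKR/J and 6.07, 6.36 and 6.54 in DBA/2J (-3.01 ± 0.06, adjusted p = 3.39e-25). The direction for this gene therefore depended on the probe set, and the 2 strain differences were unequal (adjusted p = 2.03e-24).

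Ssbp2, a transcriptional co-regulator that binds single-stranded DNA, was lower by -4.72 ± 0.06 on 1429951_at, while its other 3 probe sets differed by between -0.09 ± 0.04 and 0.06 ± 0.05 and were not called. For the Polycomb gene Scmh1 the values were -3.03 ± 0.05 on 1441573_at and 0.00 ± 0.05 and -0.07 ± 0.05 on the others. Slc20a1, a phosphate transporter, was lower by -2.90 ± 0.08 on 1438824_at. It was slightly higher, by 0.10 ± 0.03, on its brightest probe set, a call lost without the time block. In Sdc4, a cell surface heparan sulphate proteoglycan gene, the brighter probe set 1448793_a_at was lower by -2.97 ± 0.05 and the dimmer 1417654_at was higher by 0.28 ± 0.08, a call lost without the 2 arrays apart on spike-in controls (difference 0.19). C57BL/6J shared the DBA/2J level of Sdc4 on 1448793_a_at (median 6.87 against 6.88).

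**Figure D3:**
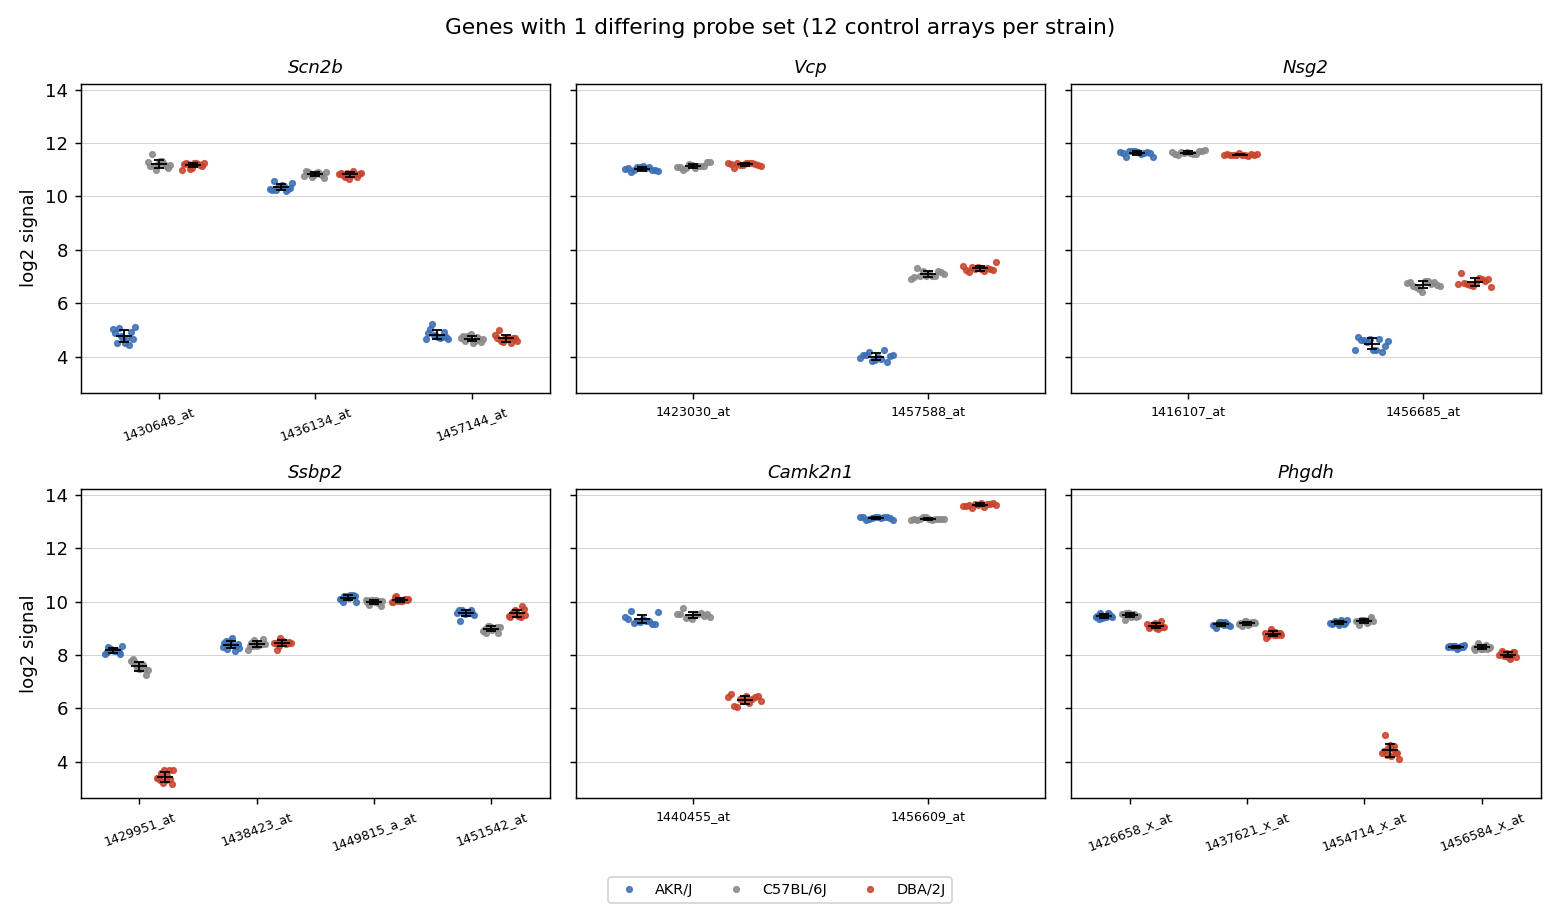
Log2 signal (vertical axis) on every probe set of 6 genes with a single probe set called with size, for 12 control arrays each of AKR/J, C57BL/6J and DBA/2J, with mean and SD in black. One probe set per gene separates AKR/J from DBA/2J widely (Scn2b 1430648_at at 4.42 to 5.12 against 11.01 to 11.26), whereas the other probe sets of the same gene show small differences or none called.

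Probe sets called with size in opposite directions were found in 34 genes. Smaller calls are not counted here: Camk2n1, a single gene, was also called in both directions, but its higher call lay under 0.5. Pdxdc1 had 4 called probe sets: 1 higher in DBA/2J by 3.87 ± 0.04 and 3 lower, by -0.57 ± 0.05, -0.96 ± 0.06 and -3.04 ± 0.06. Tia1, an RNA-binding protein of stress granules, was lower by -4.36 ± 0.06 on 1431708_a_at and higher by 0.54 ± 0.08 on 1453803_at. Its brightest probe set, 1416812_at, was higher by 0.20 ± 0.03. The long noncoding RNA gene Snhg14, host of clustered small nucleolar RNAs, was lower by -3.12 ± 0.06 on 1436964_at and higher by 0.54 ± 0.07 on 1455087_at. No single direction can be given for these genes.

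Genes read by 1 probe set cannot be compared in this way. The highest of them in DBA/2J were Stab2, a scavenger receptor of sinusoidal endothelium (3.68 ± 0.09), the RNA-binding gene Rbm45 (2.97 ± 0.07), the protocadherin gene Pcdhb9 (2.65 ± 0.11), Zfp551 (2.34 ± 0.07) and Morn2 (1.98 ± 0.07). Gm13306 was the lowest, at 10.03, 10.27 and 10.91 in AKR/J and 4.36, 4.71 and 5.04 in DBA/2J (-5.68 ± 0.08, adjusted p = 2.33e-27). Tmem267 followed with -4.27 ± 0.11, then 2010315B03Rik (-2.74 ± 0.09), Abhd1 (-1.69 ± 0.06) and AI987944 (-1.65 ± 0.11). None of these 10 overlapped between strains.

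The strain difference was then measured in the sleep-deprived mice, which share no array with the controls. There 7541 of 45037 probe sets were called (16.7%; 8.46% higher in DBA/2J), 1244 of them with size (2.76%). Of the 1244 probe sets called with size in controls, 1243 were called with the same sign (99.9%), 1113 also reached the size, and none was called in the opposite direction. Over these 1244 the median ratio of the difference in sleep-deprived to that in control mice was 0.984. Of the 7105 probe sets called at any size in controls, a smaller share recurred. There 5190 (73%) were called with the same sign and 3 with the opposite sign. The classes recurred as well: 78 of 91 agreeing genes (85.7%), 308 of 367 single genes (83.9%) and 29 of 34 opposite genes fell in the same class. Of the agreeing genes 1 became single, and of the single genes none became agreeing. Scn2b differed by 6.47 on 1430648_at and 0.51 on 1436134_at, Cap1 by 3.77 and 4.24, and Phgdh by -4.83 on 1454714_x_at and -0.38 on 1426658_x_at.

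**Figure D4:**
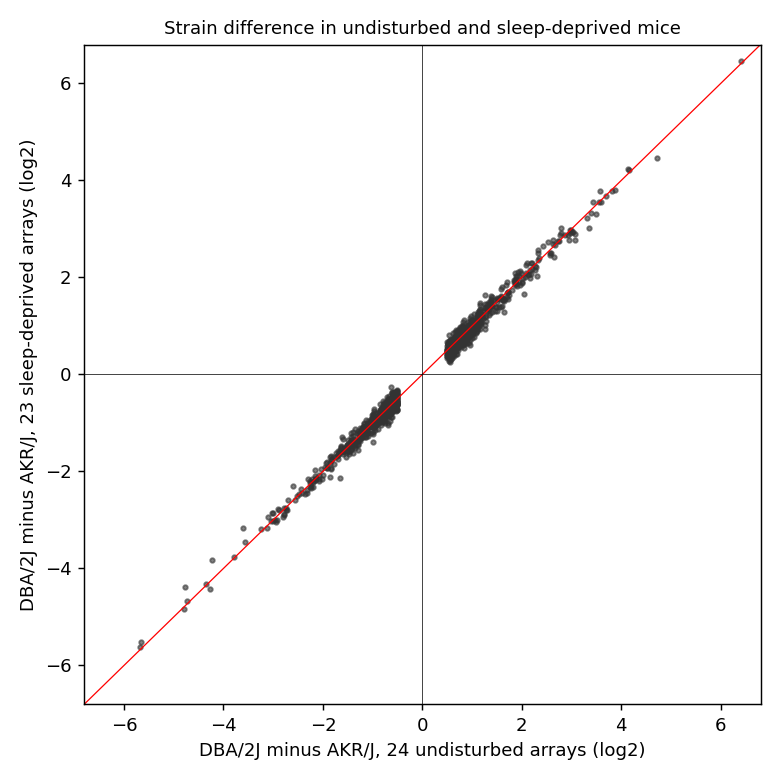
Difference between DBA/2J and AKR/J (log2) on the 1244 probe sets called with size, in undisturbed mice (24 arrays, horizontal axis) and in sleep-deprived mice (23 arrays, vertical axis), 1 point per probe set, with the line of equality. The points follow the line over the whole range, with a median ratio of 0.984.

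The difference did not depend detectably on the time of sacrifice. In the test of strain by time, 0 of 45037 probe sets passed the threshold (limma F test with Benjamini-Hochberg adjustment, 0% called), and 1835 (4.07%) had an unadjusted p under 0.05. With all 71 arrays sharing the estimate of the spread, 7 probe sets passed. One was Homer1 on 1436387_at, a synaptic scaffold gene induced by wakefulness, with differences of 0.23, -0.28, -0.67 and -0.02 at the 4 times. Another was Mrpl15 on 1430798_x_at, which was lower in DBA/2J at every time, by -0.46, -1.18, -0.68 and -0.22.

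C57BL/6J gave another level for each probe set. On the 622 probe sets higher in DBA/2J the C57BL/6J mean was nearer to DBA/2J on 370 (59.5%), and on the 622 lower ones it was nearer to DBA/2J on 209 (33.6%). In both directions it was thus more often near the strain with the higher signal, on 783 of 1244 in all (62.9%). That share was 65.4% on the called probe sets of agreeing genes and 65.9% on those of single genes. Since C57BL/6J is a single strain, these shares describe this strain only.

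Gene groups were read on 1 probe set per gene, that of highest mean level, on which 2978 of 18193 genes were called (16.4%; 8.37% higher and 8% lower in DBA/2J) with a median difference of -0.00349. Other probe sets of a gene can differ more, so an agreeing or single gene can be uncalled here. A called member is one past the adjusted threshold of 0.05, whatever its size. Calls of that kind recurred less often in the sleep-deprived mice than calls with size.

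Genes that mark the cerebellum were mostly lower in DBA/2J. Of 9 measured, 7 were called and lower and none higher, with a median difference of -0.16. Cbln3, a secreted protein of cerebellar granule cells, differed most. Its bright 1455445_at read 9.88, 10.37 and 10.61 in AKR/J and 8.57, 9.15 and 9.38 in DBA/2J (-1.28 ± 0.05, adjusted p = 2.79e-17). Its 1422911_at was lower by -2.26 ± 0.10, so the gene was agreeing, with no overlap between strains on either. Zic1, a transcription factor of granule cells and their precursors, was lower by -0.76 ± 0.04 on 1423477_at and -0.19 ± 0.05 on 1439627_at. By the rule above Zic1 is thus a gene with a single differing probe set. The homeobox gene En2 was lower by -0.39 ± 0.07, although the strains overlapped.

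The remaining cerebellar members moved less. The Purkinje cell gene Car8 was lower by -0.26 ± 0.03, Pvalb, a calcium-binding protein of fast-spiking neurons, by -0.16 ± 0.03, Pcp2 by -0.12 ± 0.04 and the granule cell receptor subunit Gabra6 by -0.10 ± 0.03. Cbln1 and the calcium-binding protein gene Calb1 were not called on their brightest probe sets. Gabra6 was near the threshold, since its call was lost with quantile normalization, without the time block, and on leaving out any of 12 of the 24 arrays, and 5 or 6 members were lower in those settings. Pcp2 was nearer still (adjusted p = 0.046). Neither was called in the sleep-deprived mice (adjusted p = 0.104 for Gabra6 and 0.363 for Pcp2). The linear signal summed over the 9 genes ran from 18280 to 19630 in AKR/J (median 19130) and from 14960 to 16600 in DBA/2J (median 16080), without overlap. In the sleep-deprived mice it ran from 18180 to 19650 in AKR/J and 15580 to 16770 in DBA/2J, again without overlap. The C57BL/6J control median, 18470, lay between those of the other controls, but its range, 17360 to 18870, overlapped that of AKR/J. Single members could lie outside, such as Car8 (C57BL/6J mean 11.11, AKR/J 10.57) and Gabra6 (C57BL/6J 10.87, DBA/2J 11.18). A linear sum weighs bright genes most, and Zic1 and Cbln3, with the largest differences, contributed most to the gap between DBA/2J and AKR/J. In whole-brain RNA fewer cells of a type, less RNA per cell and a smaller share of a region in the sample cannot be told apart. Differences of single genes or probe sets cannot be told apart from these either.

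**Figure D5:**
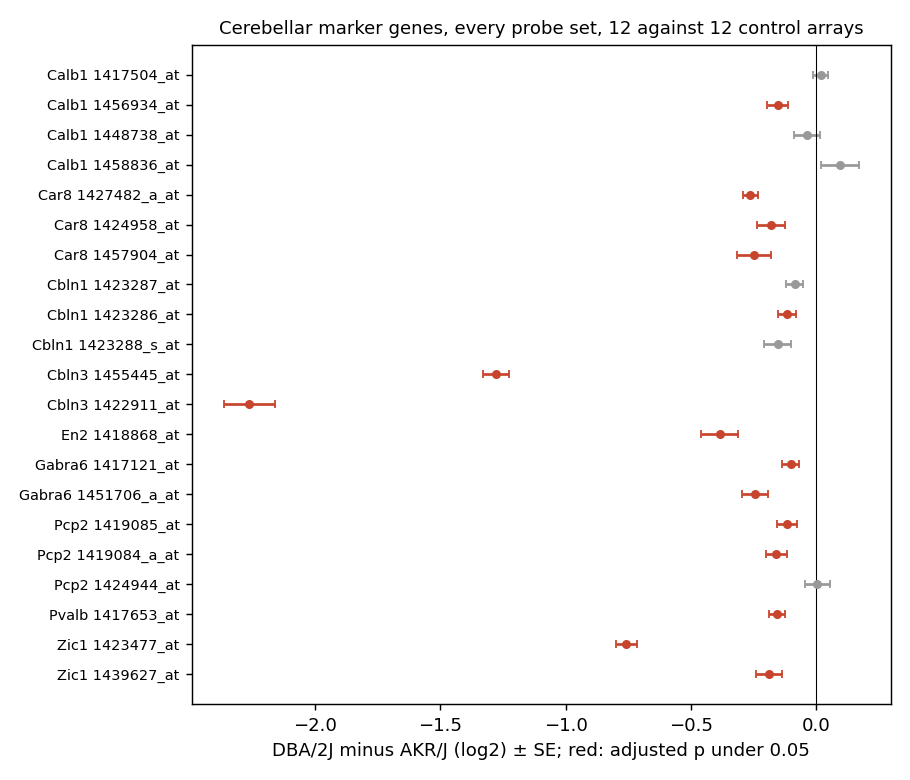
Strain difference (DBA/2J minus AKR/J, log2, horizontal axis) with its SE on every probe set of 9 cerebellar marker genes, from 12 arrays per strain; red points passed the adjusted threshold. Differences lie mostly below 0, with Cbln3 at -1.28 and -2.26 and Zic1 at -0.76 farthest out, and most other probe sets closer to 0.

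The labelled tissue was borne out by bright markers of neurons, astrocytes and oligodendrocytes, none of which lay below the median signal. Among 10 neuronal markers 2 were lower and none higher: the neurofilament gene Nefl by -0.12 ± 0.03, a call lost without the 2 arrays apart on spike-in controls, and Map2, a dendritic microtubule protein, by -0.77 ± 0.04. Map2 on 1434194_at read 12.03, 12.15 and 12.34 in AKR/J and 11.12, 11.37 and 11.56 in DBA/2J, with no overlap, and its other probe sets differed by -0.67 ± 0.06, -0.48 ± 0.07 and 0.02 ± 0.05. Striatal markers were higher on 3 of 6, all by small amounts: the neuropeptide gene Tac1 by 0.19 ± 0.03, the dopamine receptor gene Drd1 by 0.19 ± 0.06 and Rgs9 by 0.11 ± 0.03, the last no longer called with quantile normalization, without the 2 arrays apart on spike-in controls, or on leaving out any of 8 arrays. Of 10 astrocyte markers 3 were higher, including the water channel gene Aqp4 (0.32 ± 0.04) and the glutamate transporter gene Slc1a2 (0.32 ± 0.05), and 2 lower, Gfap (-0.30 ± 0.10) and Gjb6 (-0.16 ± 0.04). Another probe set of Slc1a2, 1439940_at, was called lower (-0.17), a call lost on leaving out any of 15 arrays. Oligodendrocyte markers were lower on 2 of 8, Mog (-0.19 ± 0.04) and Mal (-0.15 ± 0.04). The wider myelin list had 1 of 17 members higher, Tspan2 (0.24 ± 0.03), and 3 lower.

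Small marker lists of other tissues also held a few calls. Choroid plexus markers were higher on 2 of 8, the potassium channel subunit gene Kcne2 (0.84 ± 0.07) and Aqp1 (0.20 ± 0.05). Meningeal markers were lower on 2 of 9, Lum (-0.59 ± 0.06) and Slc22a6 (-0.33 ± 0.05). Endothelial markers split into 2 higher and 1 lower of 8, and blood markers were higher on 2 of 4 (Ptprc, 0.22 ± 0.06, and Alas2, 0.39 ± 0.12, whose call was lost on leaving out any of 8 arrays). None of 5 olfactory bulb markers was called.

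Microglial genes changed in both directions. Of 10 microglial markers 7 were called, 5 lower and 2 higher, and of 18 complement and microglial genes, which include all 10 of these markers, 6 were higher and 6 lower. P2ry12, a purinergic receptor gene of resting microglia, was lower by -0.60 ± 0.04 (adjusted p = 4.1e-12) and Tmem119, another such marker, by -0.34 ± 0.05. The fractalkine receptor gene Cx3cr1 (-0.21 ± 0.05), Aif1 (-0.45 ± 0.06) and the growth factor receptor gene Csf1r (-0.11 ± 0.04) were lower too. Higher in DBA/2J were the protease gene Ctss (0.30 ± 0.04) and the complement genes C1qa (0.29 ± 0.05) and C1qc (0.23 ± 0.06). The summed signal of the 10 markers overlapped between strains, at 4399 to 4879 in AKR/J and 4442 to 5583 in DBA/2J.

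Genes of antigen presentation differed often, 7 higher and 3 lower of 23 measured. The strains carry different haplotypes of the H2 complex, and the class I genes are near copies of each other, so a probe set can read more than 1 of them. Class I molecules display peptides on the cell surface. H2-K1 was higher in DBA/2J by 2.12 ± 0.04, 1.97 ± 0.10 and 1.15 ± 0.07 on 3 probe sets, with 0.03 ± 0.05 on the fourth. On its brightest, 1451931_x_at, AKR/J read 6.09, 7.18 and 7.57 and DBA/2J 8.96, 9.06 and 9.20, with no overlap. H2-D1 was opposite: of 9 probe sets 7 were higher, by 1.39 ± 0.07 to 3.81 ± 0.06, 1 lower by -2.72 ± 0.08 and 1 not called. C57BL/6J was near AKR/J on 3 of the 7 probe sets higher in DBA/2J (medians 4.22, 4.27 and 5.24) and near DBA/2J on the other 4, among them the brightest, 1451784_x_at. Of 7 class II genes and their chaperones, which serve antigen-presenting cells, 4 were called and higher, by smaller amounts: H2-Ab1 by 0.48 ± 0.06, H2-DMa by 0.41 ± 0.05, H2-Aa by 0.20 ± 0.05 and Cd74 by 0.19 ± 0.05. The other 3, H2-Eb1 (0.06 ± 0.05), H2-Oa (-0.05 ± 0.05) and H2-Ob (-0.12 ± 0.04), were not called. Lower in DBA/2J were H2-Bl by -1.08 ± 0.06 (adjusted p = 7.5e-15), H2-T24 by -0.31 ± 0.07 and the peptide transporter gene Tap2 by -0.14 ± 0.05.

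Interferon-induced genes were called on 11 of 31, of which 10 were higher in DBA/2J. The immunity GTPase gene Iigp1 was higher by 0.69 ± 0.05 from a low level, the membrane antiviral gene Ifitm3 by 0.46 ± 0.07, Rsad2 by 0.40 ± 0.08, Oasl2 by 0.40 ± 0.07 and Lgals3bp by 0.39 ± 0.03. The exception was Xaf1, lower by -0.63 ± 0.07 on its brightest probe set and called in opposite directions over its probe sets.

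Among sleep and wake neuromodulator genes 9 of 46 were higher in DBA/2J and none lower, against 8.37% of all genes higher. The serotonin receptor gene Htr1b had the largest difference, 0.52 ± 0.05 on 1442077_at, but 0.00 ± 0.05 on 1422288_at, and the strains overlapped on both. The neuropeptide genes Vip (0.22 ± 0.03), Npy (0.19 ± 0.06), Crh (0.18 ± 0.06) and Nts (0.15 ± 0.03), the serotonin synthesis gene Tph2 (0.20 ± 0.05), Maob (0.19 ± 0.04) and the histamine receptor gene Hrh3 (0.10 ± 0.03) were each higher by under 0.25. Drd1, given above, is the other member.

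Potassium channel genes were called on 13 of 45, 9 higher and 4 lower. Besides Kcnj16, Kcnj6, a subunit of G-protein-gated channels, was higher by 0.62 ± 0.04 on its brightest probe set and Kcnk1, a leak channel gene, by 0.39 ± 0.04. Lower members changed by small amounts, such as Kcnv1 (-0.23 ± 0.04). Of 27 glutamate receptor and synapse genes 3 were higher, led by the metabotropic receptor gene Grm3 (0.43 ± 0.04), and Shank3 was lower (-0.31 ± 0.06). One of the 3, Grik1 (0.12 ± 0.04), lost its call with quantile normalization and on leaving out any of 12 arrays. Of 18 GABA receptor genes Gabrb1 was higher (0.22 ± 0.03), and Gabbr1 (-0.30 ± 0.03) and Gabra6 were lower. Gabrb1, Grik1 and Grm7 were single genes whose call with size lay on a dimmer probe set. Gabrb2 was agreeing, but its brightest probe set was not called (0.04 ± 0.03).

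Detoxification genes were called on 9 of 35. Aldh1a1, which oxidises retinal and other aldehydes, read 9.11, 9.24 and 9.46 in AKR/J and 10.12, 10.29 and 10.41 in DBA/2J (1.03 ± 0.04, adjusted p = 1.41e-17). Its single probe set separated the strains fully, and C57BL/6J was at the DBA/2J level with a median of 10.36. The glutathione transferase gene Mgst3 was higher by 0.69 ± 0.06 on its bright probe set, without overlap. On 1450563_at it was higher by only 0.13, so Mgst3 is a gene with a single differing probe set. That smaller call was lost with the replicate block and on leaving out any of 5 arrays. The retinoic acid receptor gene Rarb was higher by 0.45 ± 0.05, in a list of 22 retinoid and thyroid genes of which 2 were higher and 2 lower.

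The remaining groups are given beside the same background of 16.4% called. Core clock genes were called on 2 of 22 (9.09%), Timeless (-0.35 ± 0.06) and Bhlhe40 (0.12 ± 0.04), the latter no longer called when arrays were centred on their medians or when any of 11 arrays was left out. Per3 and Rora were not called on their brightest probe sets, but both were single genes with another probe set called with size. Immediate early genes were split 3 higher and 3 lower of 26 (23.1%), with Dusp6 lower by -0.41 ± 0.05 and Bdnf higher by 0.29 ± 0.07. Mitochondrial respiratory genes were called on 6 of 42 (14.3%), of which Sdhc differed most on the brightest probe set (0.27 ± 0.07). Larger differences lay on other probe sets of respiratory genes, as in Uqcr10, given above, and Atp5g1 on 1444874_at (1.26). Heat shock and chaperone genes were lower on 3 of 24 (12.5%), led by Hspe1 (-0.38 ± 0.04). Ribosomal protein genes were lower on 6 and higher on 1 of 36 (19.4%). Among these Rps2 was lower by -0.70 ± 0.03 and Rps6 by -0.94 ± 0.06 on 1416142_at and -0.21 ± 0.04 on its other probe set, whereas the other 4 lower members differed by 0.15 or less in size. Ribosomal protein genes have many processed copies, so these probe sets may read more than 1 gene.

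Genes long known to vary among inbred strains were also examined. Of 15 measured, 4 were called and lower in DBA/2J. DBA/2J carries the dilute allele of Myo5a, the motor that positions pigment granules, and a truncating allele of Gpnmb. Myo5a was lower on 3 probe sets by similar amounts (-0.42 ± 0.04, -0.45 ± 0.04 and -0.39 ± 0.06). Gpnmb was lower by -0.16 ± 0.05 on 1448303_at, with means of 5.23 in AKR/J and 5.07 in DBA/2J. Both means lie below the median signal of all probe sets, so neither level is shown to be above background. In the sleep-deprived mice Gpnmb was not called there (difference -0.03, adjusted p = 0.783). Thy1, the surface antigen for which AKR/J carries the other allele, read 11.56, 11.67 and 11.90 in AKR/J and 11.11, 11.24 and 11.35 in DBA/2J (-0.46 ± 0.04). The retroviral restriction gene Fv1 was lower by -0.19 ± 0.05, but lost its call in the fit of all 71 arrays. Glo1, a detoxifying enzyme of methylglyoxal, and Alad, of heme synthesis, did not reach a call on their brightest probe sets. Glo1 differed by 0.01 ± 0.03, -0.02 ± 0.03 and -0.02 ± 0.03 on 3 probe sets and by 0.47 ± 0.03 on the dimmest, 1436070_at. C57BL/6J stood apart from both strains on these genes, at a median of 9.92 against 10.92 and 10.91 for Glo1 on 1424109_a_at and 7.89 against 9.33 and 9.30 for Alad on 1424877_a_at.

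Called genes were more often followed by a called gene along the chromosome than measured genes in general. Of 18122 genes with a place in the RefSeq gene order, 354 were called with size on their brightest probe set (1.95%), and the next measured gene was called with size for 31 of these 354 (8.76%). Its difference had the same sign in 19 and the opposite sign in 12, and no test was made of these shares. The longest run of one direction was lower in DBA/2J and held Ccl27a (-0.54), Gm13306 (-5.68), Gm21953 (-0.95) and 4930578G10Rik (-1.65). Ccl27a encodes a chemokine, and the locus holds near-identical gene copies, so that its probe sets may read more than 1 of them. Pomt1 (-1.64), Uck1 (-0.83) and Swi5 (-1.01) formed another run of 3 lower genes, in which Pomt1 is a mannosyltransferase for dystroglycan and Uck1 a uridine-cytidine kinase. Another run was lower and held 2010315B03Rik (-2.74), 4930526I15Rik (-0.58) and Ppp2r3d (-0.62). The run of 9530057J20Rik, 6820431F20Rik and 2610005L07Rik was higher (0.60, 1.11 and 0.93).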

How the data were processed

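Whole-brain RNA was measured on one-colour Affymetrix arrays. Per the submitters' processing notes, the deposited log2 signals were computed by RMA from each probe set; its version and settings are not given in the sources used. RMA normalizes arrays together, so a shift common to most probe sets would be removed. The small number of arrays limits precision. Each of the 3 arrays of a group holds a pool of 3 mice, of 9 mice per group, so the p-values rest on variation among pools.

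Of 45101 probe sets, 64 controls were left out. The platform annotation gave 1 symbol for 34945 probe sets, several for 932 and none for 9160. A RefSeq gene list (GRCm38.p6), used for names and gene order only, held the Entrez IDs of 34741 of them. No coordinates are printed, since the build of the probes is unknown here.

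The 24 arrays were fitted with limma 3.58.1 in R 4.3.3 (lmFit and eBayes, terms for strain and time, 19 residual degrees of freedom, two-sided, Benjamini-Hochberg over 45037 probe sets); the package data.table, version 1.17.8, read the files. The same fit was made on 23 sleep-deprived arrays. The code was tested on simulated data. Named were the 12 highest and 12 lowest agreeing genes by mean difference over called probe sets, the 6 highest and 6 lowest single genes with another probe set at or above the median level, the 4 opposite genes with the largest gap, the 5 highest and 5 lowest genes with 1 probe set, and list members by p. Members and the 28 gene lists, holding 600 genes of which 514 were measured, were chosen with earlier results of these data known. Among further list members, Kcnj16, Map2 and others outside the rule were named after their values were seen. From the antigen presentation list 2 genes of the H2 region that do not present antigen were removed after their values were seen; both had been called and higher. Alternatives were other normalizations, filters, variance models, sizes, blocks and the omission of each array.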

Additional observations from a re-analysis of the deposited data

Results flagged for a closer look

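The strain difference was compared between undisturbed and sleep-deprived mice by an interaction test, which was added after seeing the data. Of 45037 probe sets 5 passed (limma, Benjamini-Hochberg), and 2920 had an unadjusted p under 0.05. Each of the following probe sets was picked out because its strain difference changed with sleep deprivation. Ptgs2 on 1417262_at, the cyclooxygenase gene induced by neuronal activity, had the largest change: DBA/2J was lower by -0.39 in controls and by -1.17 after sleep deprivation, a change of -0.76 ± 0.13 (adjusted p = 0.0327). Fam71e1 on 1437710_x_at, an agreeing gene, was higher in DBA/2J by 1.65 in controls and 1.28 after sleep deprivation, a change of -0.38 ± 0.06 (adjusted p = 0.0327). For 4933416I08Rik on 1454154_at the difference went from -0.22 to 0.11, a change of 0.34 ± 0.06 (adjusted p = 0.0388). The GTPase gene Diras1 on 1425748_at went from 0.18 to -0.12, a change of -0.30 ± 0.06 (adjusted p = 0.0388). A probe set without a gene name, 1436467_at, changed by -0.27 ± 0.05 (adjusted p = 0.0388).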

How the results depend on the processing

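The counts depend most on which probe sets are admitted and on the size limit. With only probe sets above the median level, calls with size numbered 824, single genes 224 and opposite genes 18. With 1 probe set per gene 3142 genes were called and 358 with size; with the mean of a gene's probe sets, 3414 and 315. A minimum size of 0.25 gave 263 agreeing, 698 single and 106 opposite genes, and a minimum of 1 gave 32, 146 and 3. Requiring every probe set of a gene to be called with size left 27 agreeing genes, an alternative added after seeing the data. The probe set pairs with unequal differences numbered 739 with both above the median level. Strain by time gave 1 call with a trended, robust variance model and 7 with all 71 arrays. These changes follow from fewer features, another limit or another estimate of the spread.

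Leaving out 1 array at a time gave 6588 to 7300 calls, 1235 to 1253 with size, 88 to 93 agreeing, 363 to 373 single and 31 to 36 opposite genes, 7.91 to 9.83% of called genes followed by a called gene, 5 to 7 lower cerebellar markers and 119 to 136 called list members, against 130 with all arrays. Of 244 called probe sets of the genes named by rule, 218 kept their call in every alternative that was run on them and none changed direction.

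Both strains carry replicate numbers, but same-numbered arrays did not deviate together (12 correlations from -0.13 to 0.105, 1 above 0.1), so the numbers were not taken as pairs. With the replicate block 6996 probe sets were called and 1245 with size; agreeing, single and opposite genes numbered 91, 367 and 34, pairs with unequal differences 1182, strain by time calls 0, calls in sleep-deprived mice 7267, called list members 126 and lower cerebellar markers 5.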
